A study of Mus musculus with 8 samples.

Results

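The Hippo pathway is a kinase cascade that restrains tissue growth. The STE20-like kinases Stk3 (Mst2) and Stk4 (Mst1), held on the scaffold Sav1, phosphorylate the kinases Lats1 and Lats2, which in turn phosphorylate the coactivators YAP and TAZ and keep them out of the nucleus, where they would otherwise act through TEAD DNA-binding factors. Nf2 (merlin), Wwc1 (Kibra) and Frmd6 (Willin) are cortical proteins that bring the kinases together at the plasma membrane. In fibroblasts the cascade is known for its answer to cell density and to the shape of the cytoskeleton.

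The expression of these 8 genes was examined in mouse embryonic fibroblasts (MEFs), primary cultures of mesenchymal cells grown from embryos. The probes were all those whose gene name on the array was Lats2, Lats1, Stk3, Stk4, Sav1, Nf2, Wwc1 or Frmd6. Lats1 stood on the array under its own name and under its older name AW208599. This gave 22 of 41174 gene probes, which carry 9 of 27745 gene names and stand for 8 genes.

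The cultures were C57BL/6J embryonic fibroblasts of the genotypes Lats2-/- and Lats2+/+, untreated, grown in DMEM with serum. They came from 3 litters, numbered 112, 116 and 121, with 1 named clone of each genotype per litter, so that 6 RNA extracts were compared within litters (n = 3 litters). The age of the embryos, the passage of the cultures and the part of Lats2 removed in the knockout allele were not given in the sources used here. Each extract pair was hybridised on 2-colour Agilent arrays with the dyes swapped, on 2 arrays for litters 112 and 116 and on 4 for litter 121, which gave 8 arrays. Litters 112 and 116 shared 1 slide and litter 121 had the other, so litter 121 and its slide cannot be told apart.

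Below, a log2 ratio is the signal of Lats2-/- over that of Lats2+/+ of the same litter, averaged over the arrays of that litter. A log2 signal is the normalised brightness of a probe in 1 extract. Brightness depends on the probe, so signals are compared between extracts and not between genes. Tests were run on the 22642 probes that 1 genotype or the other showed clearly over background in 2 or 3 of its extracts, and adjusted p-values are those of limma over all of them. Exons and UTRs were not assigned to probes, because the annotation at hand belongs to another build. Between 53.5 and 60.3% of gene probes on an array were above background in the Lats2-/- channel and between 52.9 and 61.3% in the Lats2+/+ channel.

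Of the 22 probes, 20 passed, and each of the 20 was above background on all 8 arrays in both genotypes. All 8 genes were therefore detected. The other 2, A_52_P140450 and A_51_P471900 of Stk3, were above background on 1 of 8 arrays per genotype, and no test was made of them.

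The targeted gene was read first. Lats2 had 4 probes on the minus strand of chromosome 14 (build mm8), each covering 60 bases. A_52_P425064 (chr14:56676512-56676571) lay upstream and is annotated to AY015062, an alternatively spliced cDNA. The remaining 3 were annotated to the reference transcript NM_015771 and lay 31206 bp or more downstream: A_51_P133349 (chr14:56645246-56645305), A_51_P331525 (chr14:56644108-56644167) and A_52_P315345 (chr14:56644080-56644139). The last 2 overlap by 32 bases and are not independent readings. Which of these probes falls inside the removed part of the gene is not known here, and a probe outside that part does not check the genotype.

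The upstream Lats2 probe was dimmer in every Lats2-/- extract. In litters 112, 116 and 121, the order kept throughout, the wild-type log2 signal was 7.97, 7.69 and 7.89 and the matching knockout log2 signal 6.64, 6.64 and 7.33. The 3 wild-type values lay within 0.28 of each other, all above the highest knockout value, and the groups did not overlap. The knockout kept 39.7, 48.3 and 67.6% of the wild-type signal. The ratio was below 0 on 8 of 8 arrays.

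The mean log2 ratio of the upstream probe was -0.98 ± 0.39 (SD, n = 3 litters; 95% interval -1.51 to -0.45), and its adjusted p was 0.711. The size of this difference depended on how background was treated: it was -1.30 with a smaller normexp offset and -1.86 from the processed signals of the scanner software, with adjusted p of 0.734 and 0.728. On the processed signals the litters gave -2.47, -2.28 and -0.85, so litter 121 showed the smallest difference there too. With slide as a block the mean was -0.88 (adjusted p = 0.575), and litters 112 and 116, on 1 slide, averaged -1.19.

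The 3 downstream probes did not share this pattern. A_52_P315345, the most downstream, had log2 signals of 11.70, 11.95 and 11.88 in Lats2+/+ and 11.44, 11.26 and 13.05 in Lats2-/-. The wild-type extracts lay within 0.25 of each other, while the knockout extracts spanned 1.80, with litter 121 high and the other 2 low. A_51_P331525 had 10.69, 10.95 and 10.99 in Lats2+/+ and 10.41, 10.25 and 12.11 in Lats2-/-. A_51_P133349, which lies upstream of both, had 8.24, 7.99 and 8.15 in Lats2+/+ and 8.06, 7.50 and 8.94 in Lats2-/-.

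Read as ratios, A_51_P133349 gave -0.18, -0.49 and 0.80, A_51_P331525 gave -0.28, -0.70 and 1.12, and A_52_P315345 gave -0.26, -0.70 and 1.17. All 3 were below 0 on the 4 arrays of litters 112 and 116 and above 0 on the 4 arrays of litter 121. Their means were therefore near 0 with a wide spread: 0.0405 ± 0.67, 0.0477 ± 0.96 and 0.07 ± 0.98 (SD, n = 3 litters), with adjusted p of 0.984, 0.986 and 0.981. In litter 121 the downstream signal of the knockout was 174 to 225% of wild type. Without litter 121 the means were -0.34, -0.49 and -0.48.

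**Figure D1:**
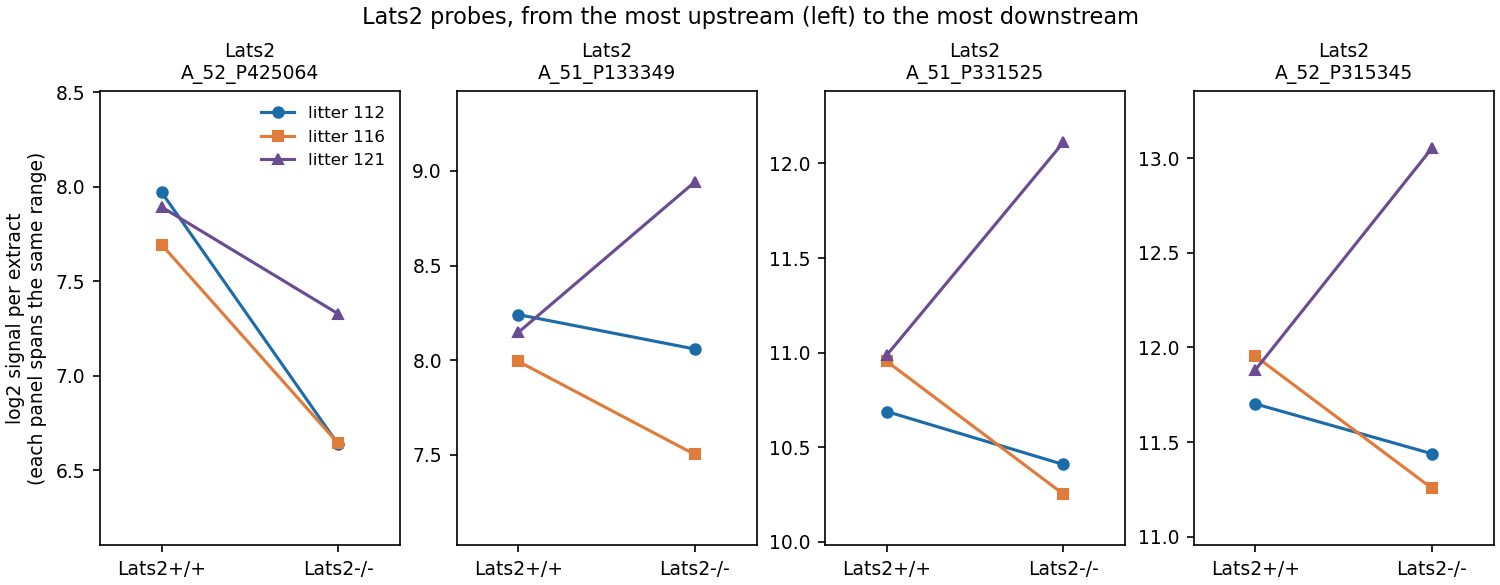
Log2 signal of the 4 Lats2 probes in the 6 extracts, with a line joining the Lats2+/+ and Lats2-/- extracts of 1 litter. The vertical axis spans the same number of log2 units in every panel, but levels cannot be compared between panels. The upstream probe is lower in all 3 knockout extracts, while the downstream probes are lower in 2 and higher in litter 121.

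The upstream and downstream readings were compared within the same extracts by subtracting the mean ratio of the other 3 Lats2 probes from that of the upstream probe. The difference was -1.09, -0.42 and -1.59 in litters 112, 116 and 121, and -1.04 ± 0.59 on average (SD, n = 3; 95% interval -1.78 to -0.29). It was negative on 8 of 8 arrays, from -0.28 to -1.76. In each litter the ratio was thus lower at the upstream probe than on average over the other 3. The upstream probe is annotated to another transcript than the other 3, so position and transcript cannot be told apart. In the same fit over 13331 probes of 5480 genes with at least 2 tested probes, the adjusted p of this difference was 0.775. It ranked 293 by p, and 0% of probes passed the adjusted threshold (5.97% at an unadjusted p under 0.05). The downstream probe A_51_P133349 ranked higher, at 171, with a difference of 0.33 ± 0.11 from a mean that includes the upstream probe (adjusted p = 0.775).

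**Figure D2:**
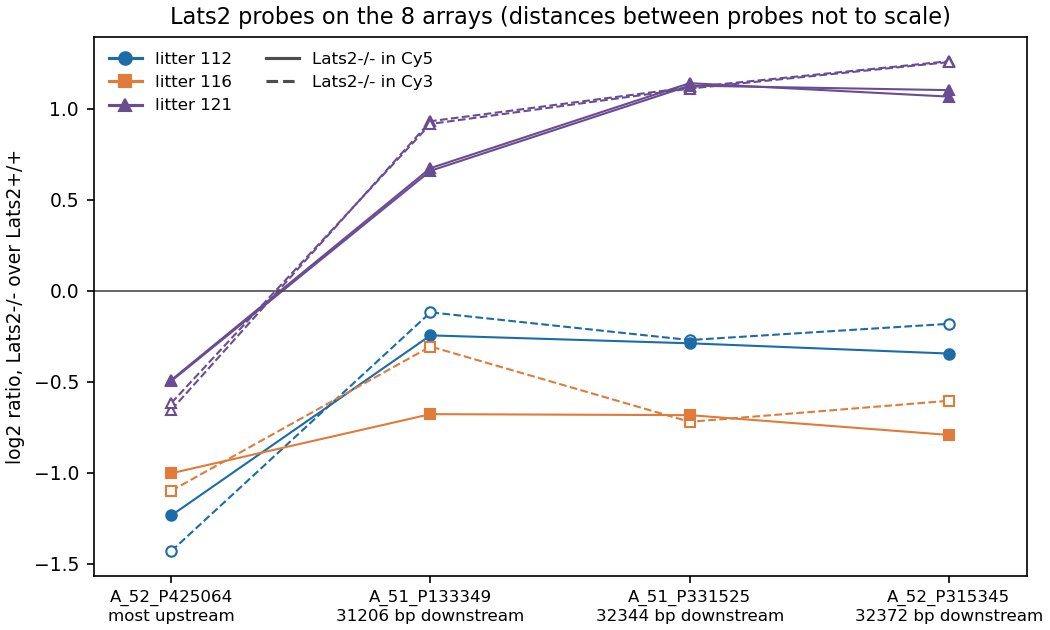
Log2 ratio of Lats2-/- over Lats2+/+ for the 4 Lats2 probes on each of the 8 arrays, in order along the gene. Colours and markers give the litter, and solid and dashed lines give the dye of the knockout extract. Every line starts below 0 at the upstream probe, and only the 4 lines of litter 121 cross to positive values downstream.

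Across the 6 extracts the log2 signal of the upstream probe correlated with those of the downstream probes at Pearson r of 0.34 to 0.36, while the 3 downstream probes correlated with each other at 0.906 to 0.998. These 6 points are pairs from 3 litters and are given as a description. By the same measure the probes most like the upstream one were those of Fyco1 (0.991), Cep164 (0.982) and Dlat (0.98), and those most like A_52_P315345 were Tob1 (0.998), Rabep1 (0.996) and Msx1 (0.993). A_51_P331525 was nearest to Tob1 (0.996), Dnm1l (0.993) and Ipo8 (0.991), and A_51_P133349 to Zswim3 (0.991), Shroom4 (0.988) and Dusp14 (0.988). Tob1 was the only gene that 2 of the 4 Lats2 probes had in common here. Those 2 are A_51_P331525 and A_52_P315345, which overlap by 32 bases. They are not independent readings, so nothing follows from the shared gene.

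Fibroblast markers also differed between the 2 extracts of litters 116 and 121. Of 7 markers all 7 were tested, and their summed linear signal was 210000 to 430200 in Lats2-/- and 185800 to 380500 in Lats2+/+. In litter 121 the log2 ratio was -4.96 for Pdgfra, the PDGF receptor alpha chain, -3.66 for Thy1 and -3.42 for Col3a1, and it was 4.10 for Nes, the intermediate filament nestin. Pdgfra was called above background in 2 of the 3 Lats2-/- extracts. The exception was litter 121, where the knockout log2 signal was 6.30, so the size of -4.96 depends on the background level. The other 4 fibroblast markers moved less there, at -1.13 for Col1a1, -0.72 for Col1a2, -0.14 for Pdgfrb and -0.0657 for Vim. In litter 116 it was 2.05 for Thy1, 3.70 for Col3a1, 2.75 for Col1a1 and 3.37 for the muscle actin Actc1, while Vim, the filament vimentin, went the other way at -1.19. Of the remaining fibroblast markers in litter 116, Col1a2 was at 1.84, Pdgfrb at 0.87 and Pdgfra at 0.13. In litter 112 the 7 fibroblast markers lay between -0.50 and 0.90, with Nes at -0.36, Actc1 at -0.41 and the neural tubulin Tubb3 at -0.84. Of markers of other cells, 2 of 4 epithelial, 1 of 4 endothelial, 2 of 4 blood, 2 of 4 neural and 1 of 4 muscle genes were tested. Their summed linear signals were 315 to 378 in Lats2-/- and 306 to 334 in Lats2+/+ for epithelial, 280 to 332 and 278 to 292 for endothelial and 279 to 344 and 298 to 320 for blood genes. They were 858 to 6938 and 772 to 1336 for neural genes and 11860 to 37830 and 1501 to 25870 for muscle genes. Each sum holds probes at background and serves only to compare the genotypes within its list. Epcam, Pecam1, Cdh5, Ptprc, Emr1, Gfap, Sox2, Myod1, Myog and Des were above background in 0 of 6 extracts. Cdh1 (E-cadherin) and Kdr (a VEGF receptor) were above it in 1 extract each, the knockout of litter 121, at log2 signals of 7.16 and 6.61 and log2 ratios of 1.09 and 0.50. The part of these differences between cultures in the ratios of litters 116 and 121, for every gene described here, was not tested, and in a culture fewer cells of a type and less RNA per cell cannot be told apart.

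Lats2 is itself known as a gene that YAP and TEAD can switch on, so the region around its start was read for the TEAD core. RefSeq (GRCm38.p6) start windows of 300 bases, 250 before and 50 after a start, were found for 7 of the 8 genes (9 windows). The letters GGAATG, on either strand, were present in 2 of the 9 and in 14.7% of all 32851 windows. The matches are shown because they lie in the knocked-out gene and in the scaffold Sav1, with 12 bases on each side and the motif in capitals. In Lats2 (chr14:57746102-57746131, minus strand) the motif ran along the gene from base 5 to base 10 after the start. In Sav1 (chr12:69987091-69987120, minus strand) it lay on the opposite strand from base -106 to base -101, so that the capitals are its reverse complement.
Lats2: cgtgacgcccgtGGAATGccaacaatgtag
Sav1: cggctttcccagCATTCCcagcggcgcggg
No match was found in the other Lats2 window, nor in those of Lats1, Stk4, Nf2, Wwc1 and Frmd6. The match describes the letters and says nothing of binding, and the coordinates belong to another build than those of the probes.

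Lats1, the paralogue of Lats2, was measured by 2 probes on chromosome 10 (mm8). A_52_P642801 (chr10:7403063-7403122) had log2 signals of 8.55, 9.12 and 8.68 in Lats2+/+ and 8.83, 8.73 and 8.90 in Lats2-/-. A_52_P113566 (chr10:7405952-7406011), the one named AW208599, had 9.91, 10.60 and 10.57 in Lats2+/+ and 10.30, 10.33 and 10.89 in Lats2-/-. Both were higher in the knockout in litters 112 and 121 and lower in litter 116, and the groups overlapped.

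The ratios were 0.28, -0.40 and 0.22 for the first and 0.39, -0.27 and 0.32 for the second, on average 0.0344 ± 0.37 (95% interval -0.48 to 0.55) and 0.15 ± 0.36 (-0.36 to 0.65). Adjusted p was 0.979 and 0.876. Neither probe differed beyond the spread between litters, and both intervals lay within -0.48 to 0.65.

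The 2 upstream kinases, Stk3 and Stk4, were read separately and were not tested against each other. Stk3 was read by 2 tested probes on chromosome 15 (minus strand, mm8). A_52_P289842 (chr15:34820397-34820456) had log2 signals of 10.27, 11.43 and 10.04 in Lats2+/+ and 10.20, 10.91 and 10.01 in Lats2-/-. A_51_P507982 (chr15:34821293-34821352) had 7.22, 7.98 and 7.33 in Lats2+/+ and 7.10, 7.58 and 7.21 in Lats2-/-. Each knockout extract was below its own litter's wild type, by most in litter 116, which was also the litter with the highest Stk3 signal in both genotypes. By array the ratio was below 0 on 5 of 8 and 6 of 8.

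The Stk3 ratios were -0.0753, -0.52 and -0.0307 for A_52_P289842 (mean -0.21 ± 0.27) and -0.13, -0.41 and -0.11 for A_51_P507982 (mean -0.22 ± 0.16; 95% interval -0.54 to 0.11). Adjusted p was 0.786 and 0.754. The 2 dim Stk3 probes, annotated to the cDNAs AK084333 and AK021111, had log2 signals between 6.02 and 6.37 in every extract.

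Stk4 was read by 4 probes on chromosome 2 (plus strand, mm8), namely A_52_P474638 (chr2:163775179-163777974), A_52_P474636 (chr2:163780316-163780375), A_51_P332900 (chr2:163780430-163788222) and A_52_P606774 (chr2:163846572-163846631). The first and the third have coordinates that span 2796 and 7793 bases, more than a probe of 60 bases. A_52_P606774 had log2 signals of 9.53, 9.35 and 9.56 in Lats2+/+ and 9.48, 9.51 and 10.99 in Lats2-/-. The 3 wild-type extracts and the knockout extracts of litters 112 and 116 thus lay within 0.21 of each other, and the knockout extract of litter 121 stood apart from all 5.

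The other Stk4 probes gave the same picture. Their ratios were -0.066, 0.0504 and 1.11 for A_52_P474638, -0.12, 0.0168 and 0.99 for A_52_P474636, and -0.0697, 0.0343 and 1.16 for A_51_P332900, against -0.0486, 0.16 and 1.43 for A_52_P606774. All 4 probes were thus close to 0 in litters 112 and 116 and at 0.99 or above in litter 121, where each of the 4 arrays was positive. Means were 0.30 to 0.51 with SDs of 0.60 to 0.80 and adjusted p of 0.777 to 0.830. Without litter 121 the means were between -0.0511 and 0.0541. With slide as a block, which weights litter 121 as much as the other 2 together, the means were 0.47 to 0.74. All 4 probes then had an unadjusted p under 0.05, and their adjusted p was 0.599 to 0.722.

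**Figure D3:**
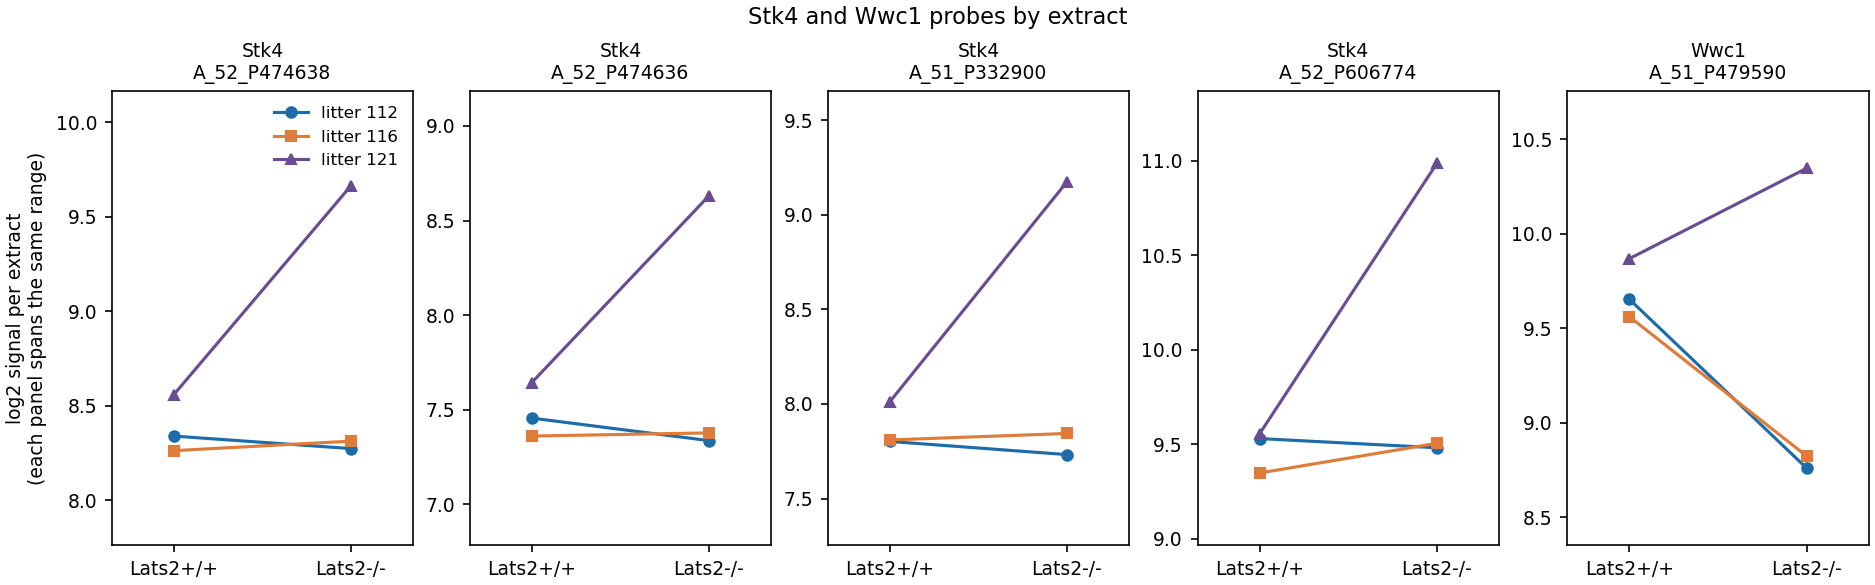
Log2 signal of the 4 Stk4 probes and the Wwc1 probe in the 6 extracts, with a line joining the extracts of 1 litter. The vertical axis spans the same number of log2 units in every panel. In the Stk4 panels the knockout extract of litter 121 is the single high point, and in the Wwc1 panel the knockout extracts of litters 112 and 116 are the 2 low ones.

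Sav1, the scaffold that holds Stk3 and Stk4 with Lats kinases, had 2 probes on chromosome 12 (minus strand, mm8). A_52_P614888 (chr12:70883797-70883856) had log2 signals of 11.01, 11.40 and 11.00 in Lats2+/+ and 11.81, 10.85 and 10.84 in Lats2-/-. A_52_P652094 (chr12:70884842-70884901) had 9.79, 9.68 and 9.24 in Lats2+/+ and 10.32, 9.26 and 9.14 in Lats2-/-. Sav1 was higher in the knockout in litter 112 and lower in the other 2 litters on both probes.

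The Sav1 ratios were 0.80, -0.56 and -0.17 on the first probe and 0.53, -0.42 and -0.0992 on the second, which averaged 0.0247 ± 0.70 and 0.0039 ± 0.48. Adjusted p was 0.990 and 0.999. Arrays of the same litter differed little, with an SD of 0.0419 and 0.0409 within litters, so the spread lay between the litters and not between the arrays.

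Among the cortical proteins, Nf2 had the smallest SD over litters. A_52_P170339 (chr11:4666399-4666458, minus strand, mm8) had log2 signals of 8.49, 8.47 and 8.23 in Lats2+/+ and 8.57, 8.56 and 8.27 in Lats2-/-. The ratios were 0.0802, 0.0874 and 0.0457, a mean of 0.0711 ± 0.0223 (95% interval -0.20 to 0.34; adjusted p = 0.890). A_52_P555913 (chr11:4682326-4684468), whose coordinates span 2143 bases, gave -0.0956, 0.0606 and -0.0718, a mean of -0.0356 ± 0.0841 (-0.32 to 0.25; adjusted p = 0.953). Both intervals lay within -0.32 to 0.34. For A_52_P170339 the SD between arrays of a litter was 0.12, larger than its SD over litters. A_52_P555913 was dim, with a mean log2 signal of 6.91 in Lats2+/+, and its mean ratio was -0.18 with processed signals.

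Wwc1, a WW-domain protein that binds Lats kinases, had 1 probe, A_51_P479590 (chr11:35682468-35682527, minus strand, mm8). Its log2 signals were 9.65, 9.56 and 9.87 in Lats2+/+ and 8.76, 8.82 and 10.35 in Lats2-/-. The knockout extracts of litters 112 and 116 were below every wild-type extract and that of litter 121 was above every one. The ratios were -0.89, -0.74 and 0.48, the same signs as the downstream Lats2 probes, and averaged -0.38 ± 0.75 (adjusted p = 0.820). Litters 112 and 116 alone averaged -0.81 (adjusted p = 0.734).

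Frmd6, a FERM-domain protein, had 3 probes on chromosome 12 (plus strand, mm8). A_51_P199968 (chr12:71820377-71820436) had log2 signals of 11.09, 11.53 and 10.89 in Lats2+/+ and 11.65, 12.09 and 11.00 in Lats2-/-. Its ratios were 0.55, 0.56 and 0.11, a mean of 0.41 ± 0.26, or 1.33-fold (95% interval 0.0059 to 0.81; adjusted p = 0.711). It was higher in 3 of 3 litters and on 6 of 8 arrays, but the groups overlapped. Its unadjusted p was under 0.05 but rose to 0.05 or above under 9 of 13 alternatives: the offset of 16, processed signals, the value table, median centring, slide as a block, no replicate block, the methods' t-test and leaving out litter 112 or litter 116. The means under all 13 lay between 0.33 and 0.56.

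The other Frmd6 probes gave 0.37, 0.33 and -0.0221 for A_52_P534560 (chr12:71813530-71813589), a mean of 0.23 ± 0.22, and 0.42, 0.31 and 0.0085 for A_52_P417457 (chr12:71819136-71819195), a mean of 0.24 ± 0.21. Adjusted p was 0.757 and 0.754. In all 3 probes the difference was carried by litters 112 and 116 and was smallest in litter 121.

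**Figure D4:**
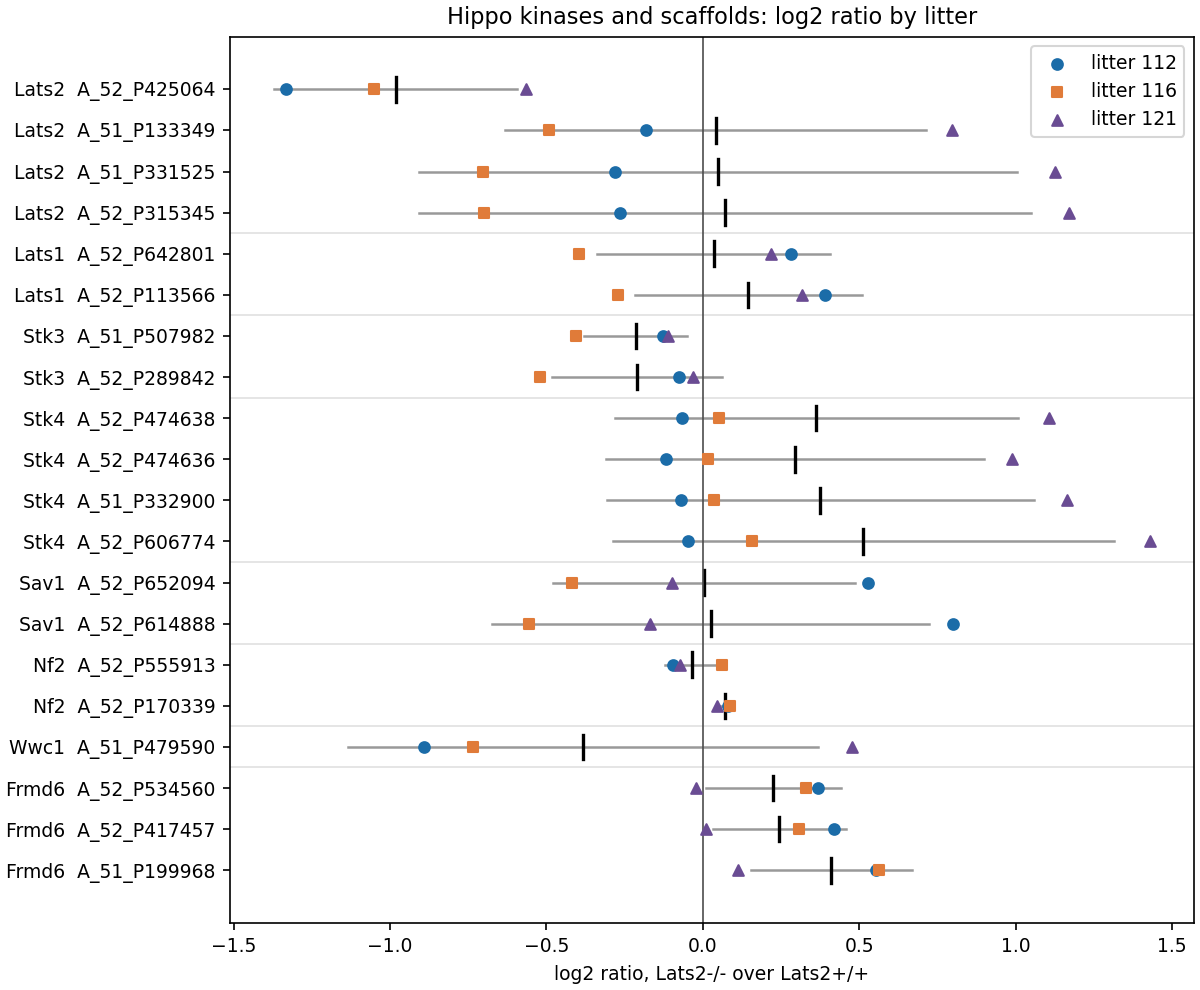
Log2 ratio of Lats2-/- over Lats2+/+ in each of the 3 litters for the 20 tested probes. Markers are litters, black ticks are means and grey lines are the mean ± 1 SD over litters. The upstream Lats2 probe has all its litters below 0, and the Stk4 probes and the downstream Lats2 probes have litter 121 as their highest point.

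Taken over the 8 genes, 0 of the 20 tested probes passed an adjusted p of 0.05, as did 0% of all 22642 tested probes. At an unadjusted p under 0.05 there were 2 of 20, the upstream Lats2 probe and A_51_P199968 of Frmd6, against 6.84% of all probes (1549). None of the 20 was at least 2-fold changed at that p, against 0.835% of all probes (189, with 144 up and 45 down in the knockout). The split depended on the setting, with 335 of 546 up on processed signals, 335 of 545 in the value table, 267 of 418 with slide as a block and 216 of 352 without litter 112. The upstream Lats2 probe stood just under 2-fold, at 1.98-fold, and was past it with the smaller offset, with the processed signals, with the value table, with median centring (-1.02) and without litter 121 (-1.19).

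In direction, 3 of 20 probes were lower in all 3 litters (the upstream Lats2 probe and both Stk3 probes), against 14.8% of all probes, and 3 of 20 were higher in all 3 (2 of Frmd6 and 1 of Nf2), against 15%. These shares are close to the background and are not a result about the pathway. The genotype groups did not overlap for 1 of the 20, lower in the knockout, where 3.03% of all probes were lower and 3.1% higher without overlap.

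The spread of the extracts was also described by genotype. The 3 Lats2-/- extracts spanned a wider range of log2 signal than the 3 Lats2+/+ extracts for 16 of the 20 probes, against 51.7% of all tested probes. The median range was 1.08 in Lats2-/- and 0.30 in Lats2+/+ for the 20 probes, and 0.49 and 0.47 for all tested probes. The 4 exceptions were the probes of Lats1 and Stk3. Probes of 1 gene read the same RNA and are not separate observations, and in the 3 downstream Lats2 and the 4 Stk4 probes the knockout extract of litter 121 was the highest of all 6. The 20 probes were above background on every array, while the other tested probes include dim ones. No test was made of this count, and nothing particular to the members follows from it.

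The SD over litters of the log2 ratio had a median of 0.44 for the 20 probes and 0.25 for all tested probes. Between arrays of the same litter the median SD of the 20 was 0.0952. Taken litter by litter, 12, 11 and 7 of the 20 ratios were below 0, and their medians were -0.0678, -0.33 and 0.16. Of all tested probes 49.13, 49.92 and 50.26% were below 0, with medians of 0.0051, 0.0007 and -0.0014. Several of the 20 probes belong to 1 gene, and no test was made of these counts.

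The rest of the pathway was examined through 47 genes in 7 lists by role, with 1 probe per gene, the brightest. All 47 were on the array and 45 were tested; Crb3 and Strip2 were too dim. Of the 45, 28 had a mean ratio above 0 and 17 below 0, with a median of 0.0554, and 0 passed the adjusted threshold. An unadjusted p under 0.05 was reached by 3 of 45, against the 6.84% of all probes.

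The 3 were Rassf2, Amot and Rassf1. Rassf2, a RAS-association protein that binds Stk3 and Stk4, was higher in the knockout in 3 of 3 litters, at ratios of 0.93, 1.33 and 1.32 (mean 1.19 ± 0.23, 2.29-fold; adjusted p = 0.634). Its log2 signals were 7.17, 8.15 and 6.45 in Lats2+/+ and 8.10, 9.48 and 7.77 in Lats2-/-, so each knockout extract was above its own litter's wild type although the litters overlapped. Its second probe was also higher in 3 of 3 litters but by less, at 0.15, 0.34 and 0.26 (mean 0.25 ± 0.0948; adjusted p = 0.716). Rassf1, a tumour suppressor of the same family, was lower in 3 of 3, at -0.42, -0.29 and -0.34 (mean -0.35 ± 0.0634; adjusted p = 0.711).

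Amot, angiomotin, which holds YAP at junctions and activates Lats kinases, had ratios of 1.22, 1.18 and 0.24 (mean 0.88 ± 0.56, 1.84-fold; adjusted p = 0.711). Its log2 signals were 12.18, 12.26 and 12.24 in Lats2-/- and 10.95, 11.08 and 12 in Lats2+/+. The knockout extracts were nearly level and all above the wild-type ones, and the smaller ratio of litter 121 came with a brighter wild-type extract. A second Amot probe gave 0.21, 0.38 and -0.0043 (mean 0.19 ± 0.19; adjusted p = 0.766).

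In the other lists, the gene with the largest mean was Map4k3 among the 10 TAO and MAP4K kinases, which can phosphorylate Lats kinases beside Stk3 and Stk4. Its ratios were -0.0314, 1.12 and 1.80 (mean 0.96 ± 0.92; adjusted p = 0.716), and its other 2 probes gave means of 0.77 and 0.86. The list was even, with 5 genes above and 5 below 0 and a median of 0.0466. The 10 tested genes of the STRIPAK phosphatase complex, which takes phosphate off Stk3 and Stk4, were even too, at 5 and 5 with a median of -0.0031. The largest there was Strn, a scaffold of the complex, at -0.0905, 1.01 and 0.0113 (mean 0.31 ± 0.61; adjusted p = 0.827), while its other 2 tested probes gave means of 0.15 and -0.0048.

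Among the 6 Lats inhibitors and E3 ligases, 4 were above and 2 below 0 (median 0.0645), and the largest was Itch, a ligase that marks Lats1 for degradation, at 0.41, 0.18 and 0.13 (mean 0.24 ± 0.15; adjusted p = 0.727). Its other 2 tested probes gave means of -0.0453 and 0, so the probes did not share this value. The NDR kinases Stk38 and Stk38l, relatives of the Lats kinases, had means of 0.24 and 0.25 on the probes used here. That Stk38l probe was above 0 only in litter 116 (1.101), and the other tested Stk38l probe gave 0.0317, 0.21 and 0.0293. The Mob cofactors Mob1a and Mob1b, which Lats kinases need for activity, had means of 0.0554 ± 0.17 and 0.0049 ± 0.12 (adjusted p = 0.939 and 0.994), and the other Mob1a probe gave -0.0745. Of the 9 cortical and junctional partners 6 were above 0 and 3 below (median 0.15), and of the 6 RASSF proteins 4 and 2 (median 0.0265).

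**Figure D5:**
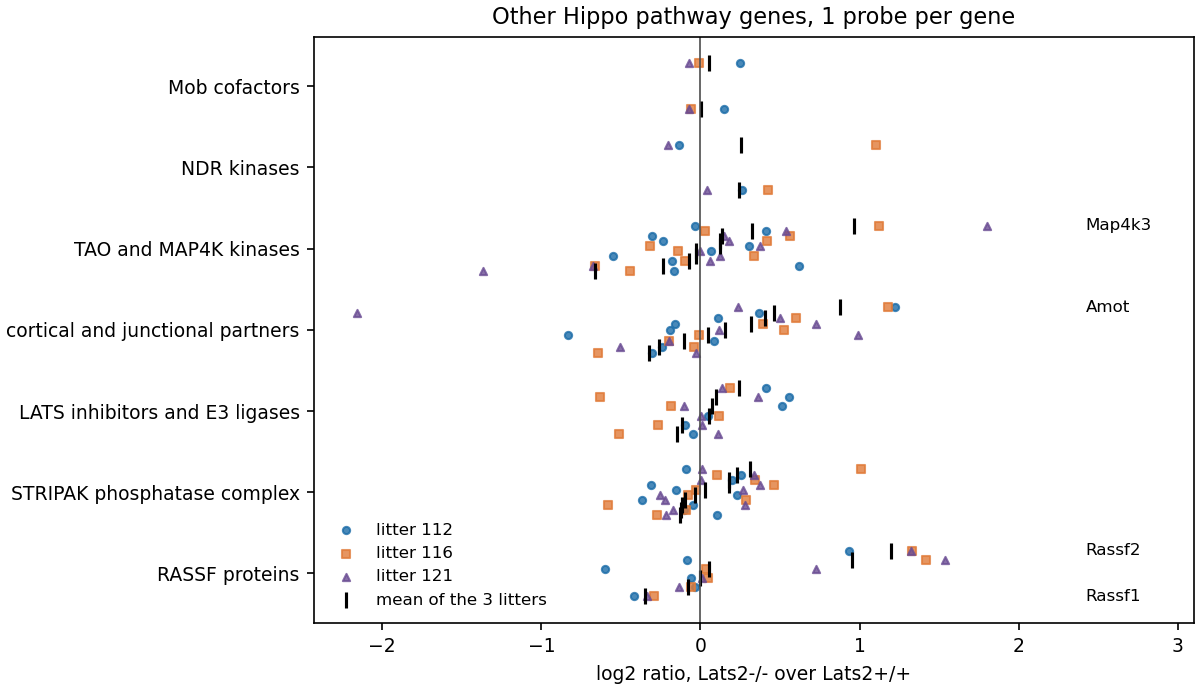
Log2 ratio of Lats2-/- over Lats2+/+ for the 45 tested genes of 7 role lists, 1 probe per gene. Markers are the 3 litters and black ticks their means, and Map4k3, Amot, Rassf2 and Rassf1 are named at the right at their own height. Most means lie near 0, with Rassf2 the gene whose litters all lie near or above 1.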

How the data were processed

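RNA of 3 litters of MEFs was hybridised on 8 2-colour Agilent arrays (design 14868). Per the file headers, the authors extracted spot intensity with Feature Extraction 10.7.3.1 (the submitters' processing notes name 10.5.1.1), probes mapped to mm8. The deposited value table holds log10 ratios, already turned to Lats2-/- over Lats2+/+, and matched the scanner's log10 ratio within 0.005. Its centring is that of the scanner software (median 0 on each array).

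Mean intensity and local background were corrected by normexp (offset 50) over all spots, control spots were dropped, and loess was run within arrays, with 860 outlier spots left out. The 43379 gene spots per array were averaged to 41174 probes. Signals per extract were scaled between arrays by Aquantile. Ratios were averaged into 3 litter values, since arrays of a litter hold the same extracts, and tested against 0 with lmFit and eBayes (limma 3.58.1, R 4.3.3), two-sided, with Benjamini-Hochberg adjustment. The code was tested on simulated data. The genotypes are paired by the litter number in the labels and share each array. No spot was saturated. The number of litters limits the precision more than that of arrays.

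Probes named were all those of the 8 genes, pathway genes with an unadjusted p under 0.05 or the largest mean of their list, and the 3 probes most like each Lats2 probe. The members and lists were chosen with earlier results of these data known. Older symbols were matched through RefSeq synonyms.

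Alternatives were an offset of 16, processed signals, the value table, median centring, a stricter or no filter, slide as a block, no replicate block, the methods' t-test, leaving out each litter and, chosen after seeing the data, 1 dye-swap pair of litter 121.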

Additional observations from a re-analysis of the deposited data

Results flagged for a closer look

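In 4 of the 20 tested probes all 4 arrays of litters 112 and 116 lay on one side of 0 and all 4 arrays of litter 121 on the other, and this difference between litters was not tested. The log2 ratio in litter 121 against the mean of the other 2 litters was 0.80 against -0.34 for Lats2 A_51_P133349, 1.12 against -0.49 for Lats2 A_51_P331525, 1.17 against -0.48 for Lats2 A_52_P315345 and 0.48 against -0.81 for Wwc1 A_51_P479590. Among all tested probes 2747 of 22642 (12.1%) showed such a split. The split follows the slide as well as the litter, and the 3 Lats2 probes are annotated to 1 transcript and are not separate observations.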

How the results depend on the processing

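No probe passed the adjusted threshold under any of the 13 alternatives, either for the ratio or, under the 10 run for it, for a probe against the other probes of its gene. The count of probes at least 2-fold changed at an unadjusted p under 0.05 (189) was 305 with an offset of 16, 546 with processed signals, 545 with the value table, 418 with slide as a block, 112 with no replicate block, 71 with the methods' t-test and 260 to 373 when 1 litter was left out. For the 20 member probes that count (0) was 1 with an offset of 16, processed signals, the value table and median centring, and 0 to 1 on leaving out a litter. Their count at an unadjusted p under 0.05 (2) was 1 with an offset of 16, processed signals, the value table, median centring and no replicate block, 5 with slide as a block (the upstream Lats2 probe and the 4 of Stk4, without Frmd6 A_51_P199968) and 1 to 3 on leaving out a litter. The count of other pathway genes (3) was 6 with no filter, 1 with no replicate block and 2 to 5 on leaving out a litter. The upstream Lats2 probe stayed below 0 throughout (-1.86 to -0.81; adjusted p 0.575 to 0.9997), as did its difference from the other Lats2 probes (-1.87 to -0.76).

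Directions turned for 9 of the 20 probes. With processed signals and the value table, Lats2 A_51_P133349 was at -0.0386 and -0.0388, Lats1 A_52_P642801 at -0.0112 and -0.0113, Sav1 A_52_P652094 at -0.0524 and -0.0523 and Sav1 A_52_P614888 at -0.0033 and -0.0029. Median centring gave -0.0224 and -0.01 for the 2 Sav1 probes, slide as a block -0.0219 and -0.0233, and 1 dye-swap pair of litter 121 gave -0.0017 for A_52_P652094. Leaving out a litter moved the downstream Lats2 probes A_51_P133349, A_51_P331525 and A_52_P315345 over -0.3369 to 0.3068, -0.4906 to 0.4223 and -0.4808 to 0.4542, with the low ends without litter 121 and the high ends without litter 116. It moved Stk4 A_52_P474638, A_52_P474636 and A_51_P332900 over -0.0078 to 0.5778, -0.0511 to 0.5024 and -0.0177 to 0.5989 (low ends without litter 121). The ranges were -0.0889 to 0.249 for Lats1 A_52_P642801 and -0.2587 to 0.2149 and -0.362 to 0.3154 for Sav1 A_52_P652094 and A_52_P614888 (low ends without litter 112). Lats1 A_52_P642801 was at -0.057 without litter 121. The cause was not tested. A normexp offset draws the ratios of dim probes toward 0.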
